A study of Mus musculus with 30 samples.

Results

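The response of mouse muscle to LLC cancer was set against its response to dexamethasone, gene by gene, to find what separated and what united these forms of muscle wasting. The measure was a difference of 2 differences in log2(TPM + 1): LLC minus its own control, less dexamethasone minus its own control. It used 16 of the 30 libraries of the series, 4 in each of 4 groups, and no library entered both responses. Of 47606 rows left after removal of 37 mitochondrially encoded rows, 13196 genes reached 1 TPM in at least 4 of the 16 libraries and were tested. A positive value means that a gene was raised more, or lowered less, under LLC than under dexamethasone.

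All 4 groups were tibialis anterior, a shin muscle made almost wholly of fast fibres, from male C57BL6/J mice. The groups are labelled Control_LLC, LLC, Control_dexamethasone and dexamethasone, and are called here the LLC control, LLC, the dexamethasone control and dexamethasone. Control is the sole treatment given for both control groups, and no genetic change is labelled in any group. The labels give neither the dose and duration of dexamethasone, nor the age of these mice, nor what LLC stands for (usually Lewis lung carcinoma, a mouse tumour line), nor whether tumour burden differed between animals. They call the samples biological replicates without tying them to single animals, so p-values measure the spread between these samples.

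Dexamethasone is a synthetic glucocorticoid. It binds the glucocorticoid receptor, which acts as a transcription factor, raising genes such as Fkbp5 and Tsc22d3 and lowering many genes of inflammation and interferon signalling. A tumour at a distance reaches muscle through circulating cytokines, lost appetite and the animal's own adrenal glucocorticoids. Both are textbook causes of wasting in fast muscle, and in both the ubiquitin ligases Fbxo32 and Trim63 mark protein breakdown.

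Before the genes, the libraries themselves differed between the experiments. The first principal component of the tested genes held 60.9% of the variance and separated the 8 libraries of 1 experiment from the 8 of the other. The LLC control was lower than the dexamethasone control in 5414 genes (41% of those tested) and higher in 334 (2.53%), so the starting points differed. How far they leaned 1 way depended on the scaling. The median control gap was −0.256 (log2) as reported, −0.034 under median-of-ratios scaling and 0.044 under quantile normalization. Counts under those scalings are given at the end. What else differed between the experiments is not labelled, and experiment and batch cannot be told apart. Mitochondrially encoded genes took 45.9 ± 3.01% of TPM (SD, n = 4) in the LLC control, 50.9 ± 6.46% under LLC, 48.7 ± 2.09% in the dexamethasone control and 37.9 ± 3.17% after dexamethasone. Their share differed by 15.7 percentage points between the responses (exact permutation test within experiments, two-sided, p = 0.00286). The library LLC 3 had the highest share, 60.4%. No source used here states the depth; from the steps between low TPM values it was put, approximately, at 47.0 to 60.9 M reads per library, at which 3 reads of a 2-kb transcript make 0.0512 to 0.0806 TPM. TPM below are therefore rescaled to the same total without those genes. Skeletal muscle identity was plain in all 16 libraries, with Myh4, the fast myosin heavy chain, at 11590 to 29360 TPM. Of 12 epithelial and lung carcinoma markers, Nkx2-1 was at 0 in every library. The summed level was 6.16 to 13.7 TPM in the LLC control and 5 to 15.1 under LLC. It was higher in the other experiment, 32.1 to 58.2 in the dexamethasone control and 35.8 to 73.2 after dexamethasone. Whether tumour cells contributed was not tested.

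The responses overlapped little. The difference passed an adjusted p under 0.05 in 543 genes, or 4.11% of those tested (limma, Benjamini-Hochberg), with 232 higher (1.76%) and 311 lower (2.36%) under LLC. LLC alone against its control raised 284 genes (2.15%) and lowered 123 (0.932%). Dexamethasone raised 1091 (8.27%) and lowered 491 (3.72%). Without 1 library the LLC rises ran from 111 (without LLC control 4) to 557 (without dexamethasone 1) and the falls from 42 (without LLC control 4) to 199 (without dexamethasone 1). The dexamethasone rises ran from 508 (without dexamethasone control 4) to 2739 (without dexamethasone 1) and the falls from 260 (without dexamethasone control 1) to 564. Across the 13196 genes the responses had a Pearson r of 0.0873 and a Spearman rho of 0.1207, given as a description since genes are not independent. The responses had the same sign, whatever their p, in 8143 genes (61.7%).

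Most genes that separated the responses had moved after dexamethasone and not under LLC. Of the 543, 371 (68.3%) passed in the dexamethasone response alone: 238 that rose and 133 that fell. Another 93 (17.1%) passed in the LLC response alone: 64 that rose and 29 that fell. A further 24 passed in both with opposite sign (0.182% of genes tested), 54 passed in neither response, and 1 passed in both with the same sign. In 357 of the 543 (65.7%) the control groups also differed, against 43.6% of all genes tested. Of the 232 higher genes the LLC control was the lower control in 186 (80.2%), against 41% of all genes at the scaling used. Its mean was under 1 TPM in 48 of the 232 (20.7%). Of the 311 lower genes the LLC control was the lower control in 161 (51.8%). Its mean was under 1 TPM in 63 of the 311 (20.3%), against 9.28% of all genes tested. Of the 543, 78 reached 1 TPM in fewer than 4 libraries outside a single group, so they were tested only through that group. That favoured a difference, so their calls are not independent support. The same held for 662 of the 13196 genes tested, most of which did not pass in the difference.

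The counts moved with single libraries and with the scaling, while the signs of the 543 did not. A kept sign follows largely from their having passed in the full fit. Without dexamethasone control 2 the difference was higher in 136 and lower in 149 genes, and without dexamethasone control 4 in 152 and 157. Without LLC control 4 it was higher in 153 and lower in 171. Lower genes numbered 177 without dexamethasone 3, 176 without LLC control 2, 180 without LLC 3 and 554 without dexamethasone 1. Under median-of-ratios scaling the difference was higher in 309 and lower in 318 genes, under quantile normalization in 388 and 334, and in TPM as deposited in 104 and 2533. In each of these fits, and in the other alternatives that were fitted, the estimate kept its sign in every gene of the 543 that was tested there, while the genes that still passed numbered 284 (without dexamethasone control 2) to 532 (robust variances).

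**Figure D1:**
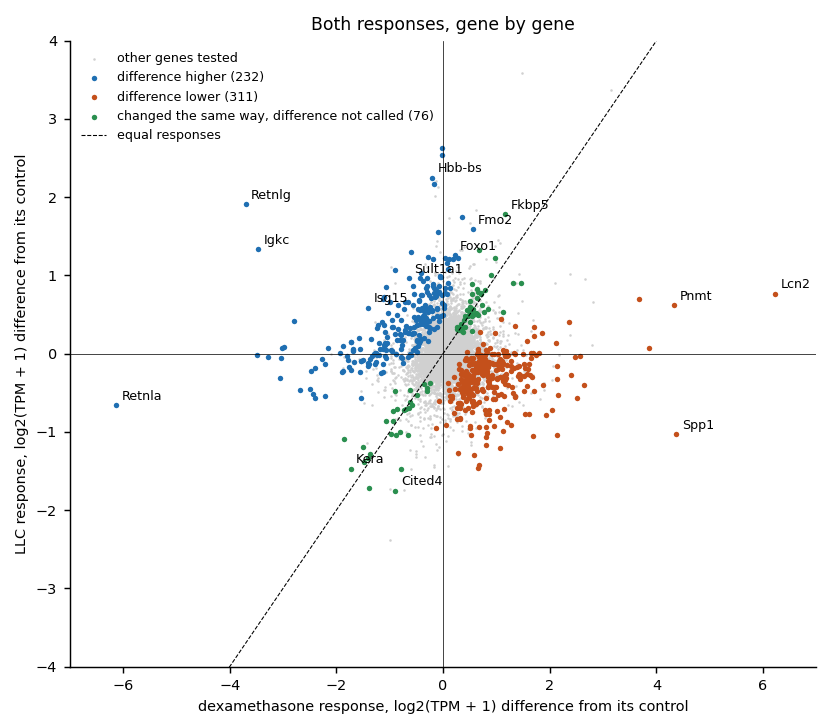
Response to LLC (vertical axis) against response to dexamethasone (horizontal axis) for 13196 genes, each a difference of group means in log2(TPM + 1), with 4 libraries per group. Blue and orange points are the 232 and 311 genes called higher and lower in the difference, green points the 76 genes that changed the same way and were not called in the difference, and the dashed line marks equal responses. Most coloured points lie near the horizontal zero line, having moved after dexamethasone and little under LLC.

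Of the 49 lists examined, the interferon-stimulated genes held the most genes higher in the difference by count, which favours long lists. Shares were larger on the MHC (10 of 15), lymphocyte (6 of 9) and red cell (3 of 5) lists. Interferon-stimulated genes encode antiviral and antigen-processing proteins and are switched on by interferons through STAT and IRF factors. Of 40 listed genes 38 were tested, and the difference was higher in 22 of them, lower in none, against 1.76% and 2.36% of all genes. Of the 22, 2 were tested only through a single group, so their calls are not independent support. After dexamethasone 34 of 38 fell (3.72% of all genes) and none rose, while 0 of 38 passed under LLC in either direction. The median response was −1.10 (log2) after dexamethasone and 0.05 under LLC, beside 0.10 and 0.06 over all genes tested. Without dexamethasone control 2 the difference passed in 12, without LLC control 4 in 13 and without LLC 4 in 14.

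The promoters of 3 such genes are shown because they carry the sequence through which interferon acts, the interferon-stimulated response element, and because their difference passed without any single library. They were chosen after their values were seen. Each run is the 200 bases before the annotated start, read 5′ to 3′ on the gene's strand, from the RefSeq promoter table (GRCm38.p6, first entry per symbol), with every match to GAAA, any 2 bases and GAAA in capitals. A match on the other strand reads TTTC, any 2 bases and TTTC. Isg15 lies at chr4:156199424-156200818 on the minus strand and its run at chr4:156200819-156201018. Rsad2 lies at chr12:26442746-26456452 on the minus strand, with its run at chr12:26456453-26456652. Trim30a lies at chr7:104409025-104465193 on the minus strand, with its run at chr7:104465194-104465393. No run overlapped an annotated exon.
Isg15: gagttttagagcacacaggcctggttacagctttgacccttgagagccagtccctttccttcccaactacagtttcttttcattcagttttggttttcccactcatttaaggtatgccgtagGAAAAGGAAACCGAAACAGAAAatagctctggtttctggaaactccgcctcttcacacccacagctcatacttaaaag
Rsad2: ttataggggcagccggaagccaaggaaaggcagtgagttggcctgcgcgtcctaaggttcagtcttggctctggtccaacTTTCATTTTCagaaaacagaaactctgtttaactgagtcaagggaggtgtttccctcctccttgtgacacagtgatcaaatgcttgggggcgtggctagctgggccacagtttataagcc
Trim30a: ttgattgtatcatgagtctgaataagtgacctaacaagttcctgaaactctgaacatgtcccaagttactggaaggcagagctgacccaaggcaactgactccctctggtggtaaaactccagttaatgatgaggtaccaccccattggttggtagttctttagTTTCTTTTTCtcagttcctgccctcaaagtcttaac

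The Isg15 run holds 3 overlapping matches that begin 78, 72 and 66 bases before the start; the single matches of Rsad2 and Trim30a begin 120 and 36 bases before it. Searched over the table's full windows, 250 bases before to 50 after the start, this element occurred in 9 of 16 promoters (56.2%) of the called interferon-stimulated genes that the table holds. It occurred in 24 of 161 (14.9%) of the genes higher in the difference, in 4 of 219 (1.83%) of those lower, and in 301 of 9881 (3.05%) of all tested genes with a promoter. The STAT element TTCNNNGAA occurred in 23 of 161 (14.3%) higher genes against 681 of 9881 (6.89%). An NF-kB-type element (GGG, any 5 bases and CC), with 99 of 161 (61.5%) against 6689 of 9881 (67.7%), and the glucocorticoid half-site pair ACANNNTGT, with 12 of 161 (7.45%) against 408 of 9881 (4.13%), are given for comparison. All motifs were read on both strands, matches may overlap, and a match describes letters, not binding.

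Isg15, a ubiquitin-like protein joined to other proteins in the antiviral response, read 8.79, 11.3, 6.59 and 6.23 TPM in the LLC control and 11.1, 15.8, 8.15 and 17.2 under LLC. In the dexamethasone control it read 37.7, 20.9, 11.4 and 24.0, and after dexamethasone 5.71, 7, 12.6 and 6.35. The dexamethasone control was high against every other group, apart from its library 3 at 11.4, and LLC overlapped its own control. The difference was 1.99 ± 0.44 (log2, SE; adjusted p = 0.0168), from a fall of 1.40 after dexamethasone (adjusted p = 0.00827) and a response of 0.59 under LLC that did not pass (adjusted p = 0.33).

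Rsad2, an enzyme that makes a chain-terminating nucleotide against viruses, read 3.69, 5.96, 4.67 and 2.47 TPM in the LLC control and 5.83, 7.95, 3.79 and 5.71 under LLC. It read 16.3, 8.32, 6.35 and 8.24 in the dexamethasone control and 2.99, 3.24, 4.51 and 3.83 after dexamethasone. Those dexamethasone groups did not overlap, while LLC and its control did. Its difference was 1.55 ± 0.36 (adjusted p = 0.0212). Trim30a, an interferon-induced regulator of innate immune signalling, read 2.78, 3.28, 2.13 and 2.96 in the LLC control, 3.32, 5.07, 3.99 and 5.04 under LLC, 12.4, 8.4, 7.03 and 10 in the dexamethasone control and 2.96, 5, 6.58 and 4.68 after dexamethasone. LLC lay above its control in Trim30a without overlap, by 0.49 ± 0.19, a response that did not pass (adjusted p = 0.172), and the difference was 1.36 ± 0.27 (adjusted p = 0.00877).

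Irf7, the factor that amplifies type I interferon production, Gbp2, an interferon-induced GTPase, and Cxcl9, a chemokine that attracts T cells, fell after dexamethasone too. Irf7 stood at 7.47 to 14.4 TPM under LLC and at 3.68 to 6.10 after dexamethasone, and its difference was 1.87 ± 0.37 (adjusted p = 0.00809). It stood at 8.38 to 12.2 in the LLC control and at 9.78 to 23.8 in the dexamethasone control. Gbp2 stood at 23.1 to 91.1 TPM in the dexamethasone control and at 7.82 to 15.6 in the 12 other libraries. Cxcl9 read 39.4, 16.9, 12.9 and 10.2 TPM in the dexamethasone control and at most 2.89 in any other library, and its difference was 2.74 ± 0.42 (adjusted p = 0.00156). The high group in both was the dexamethasone control. Irf7, Gbp2, Rsad2 and Trim30a were named after their values were seen. In a fit of all 8 groups of the series the adjusted p was 0.0674 for Isg15 and 0.0623 for Irf7.

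Antigen presentation followed the same pattern. Of 15 MHC class I and class II genes, which present peptides to T cells, the difference was higher in 10 (1.76% of all genes). After dexamethasone 14 of the 15 fell (3.72% of all genes) and none passed under LLC. Of the 10, 1 was tested only through a single group, so its call is not independent support. H2-Eb1, a class II beta chain, read 295, 214, 286 and 191 TPM in the dexamethasone control and 48.2, 25.9, 55.0 and 46.1 after dexamethasone. It read 64.7, 126, 87.0 and 108 in the LLC control and 73.4, 112, 41.3 and 63.2 under LLC. The dexamethasone groups were far apart and the LLC groups overlapped; the difference was 2.04 ± 0.40 (adjusted p = 0.00758). H2-K1, a class I heavy chain, Tap1, which carries peptides into the endoplasmic reticulum, and Psmb9, an immunoproteasome subunit, had differences of 0.89 ± 0.16, 1.28 ± 0.29 and 1.14 ± 0.22 (adjusted p = 0.00468, 0.0196 and 0.00809). These 3 were named after their values were seen. H2 genes resemble each other, and the sources used here do not say how shared reads were counted, so their single values are uncertain. In TPM as deposited H2-K1 did not pass (adjusted p = 0.0978), and in the fit of all 8 groups Tap1 did not (adjusted p = 0.0503).

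Of 20 listed lymphocyte genes 9 were tested. Of these 9, 6 passed the filter only through the dexamethasone control, Trbc2 among them. Those 6 were high there, so the filter favoured a difference and their calls are not independent support. As a description, the 9 fell after dexamethasone and the difference was higher in 6, of which 4 passed the filter in that way. The count of 6 was 3 without dexamethasone control 1, dexamethasone control 2, dexamethasone 4 or LLC control 1. Trbc2, the constant region of the T cell receptor beta chain, read 5.94, 3.27, 4.55 and 3.19 TPM in the dexamethasone control and 0.427, 0.353, 0.273 and 0.488 after dexamethasone. In the LLC control it read 0.409, 1.51, 0.775 and 0.987, and under LLC 0.667, 0.984, 0.274 and 0.553. It was high in the dexamethasone control alone (difference 1.66 ± 0.26, adjusted p = 0.00199). Igkc, the kappa light chain made by B and plasma cells, had a difference of 4.79 ± 0.84 (adjusted p = 0.00427) and read 23.6 TPM in LLC 4 against 1.92 to 2.46 in the other LLC libraries. Fewer cells of a type and less RNA per cell cannot be told apart in such bulk samples. In the fit of all 8 groups neither Trbc2 nor Igkc passed (adjusted p = 0.121 and 0.132), nor did the fall of Igkc after dexamethasone (0.0614).

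What these 3 lists have in common, though not they alone, is a dexamethasone control above the LLC control. The LLC control lay below it in 37 of 38 interferon-stimulated genes, 15 of 15 MHC genes and 8 of 9 lymphocyte genes, against 41% of all genes. For lymphocytes this count and the gap given next were partly built in. Of the 9 genes, 6 passed the filter only through the dexamethasone control. The median gap between the controls was −1.20, −1.19 and −0.86 (log2, LLC control minus dexamethasone control). Between the treated groups it was −0.01, 0.11 and 0.26, and LLC was lower than dexamethasone in 3, 2 and 0 of those genes, against 46% of all genes tested. The contrast of the treated groups was added after the data were seen. A lower LLC control was not particular to these 3 lists. It was found in 15 of 20 macrophage genes and 30 of 33 matrix genes too, with median gaps of −1.21 in both. The median differences of those 2 lists were negative, −1.28 and −1.04. The summed level of the 20 lymphocyte markers was 103 to 177 TPM in the dexamethasone control, 25.3 to 39.3 after dexamethasone, 91.4 to 128 in the LLC control and 38.2 to 77.3 under LLC. Over all 20 markers the controls thus overlapped, but most of that sum in the LLC control was Ighm, the IgM heavy chain. Ighm alone read 77.5 to 119 TPM in the LLC control and 57.3 to 98.7 in the dexamethasone control. The overlap therefore says little of the other markers. The part that lymphocyte number played in the interferon result was not tested.

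**Figure D2:**
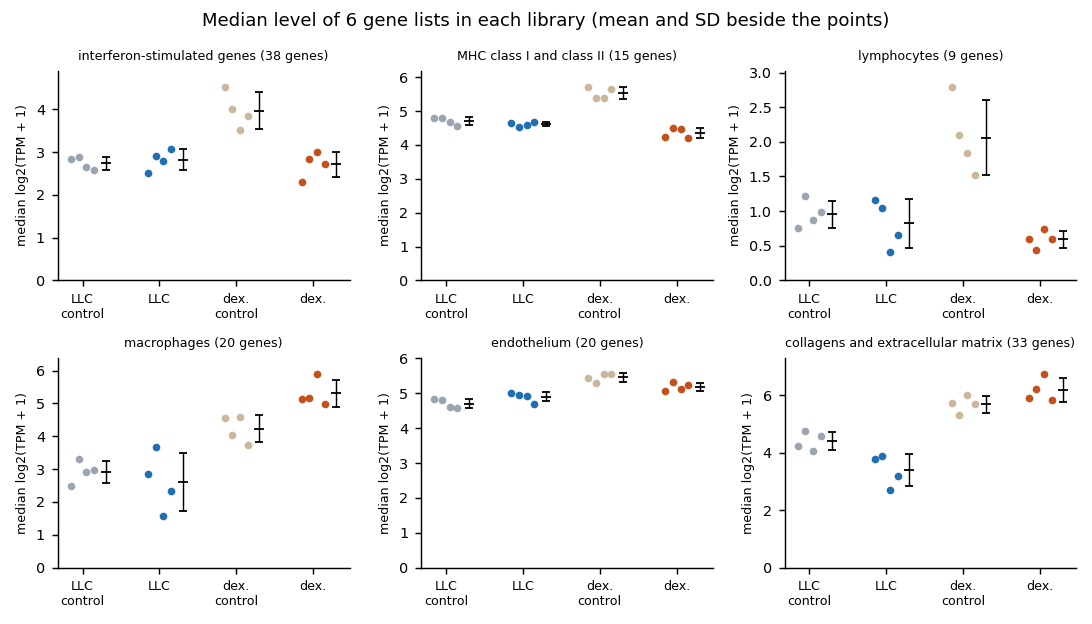
Median log2(TPM + 1) of 6 gene lists in each of the 16 libraries, with the mean and SD of the 4 libraries beside the points; the number of genes tested stands in each title. Over the genes tested, interferon-stimulated, MHC and lymphocyte lists are highest in the dexamethasone control. Of the 9 lymphocyte genes, 6 were tested only through that group, and the sum of all 20 markers overlapped between the controls. Most of that sum in the LLC control was Ighm. Macrophage genes are highest after dexamethasone, and the matrix list is lowest under LLC.

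Genes linked to eosinophils and type 2 immunity, the arm of immunity that responds to helminths and allergens, held some of the largest positive differences. Retnla, a secreted protein of alternatively activated macrophages (chr16:48842551-48844461, plus strand), read 518, 226, 349 and 214 TPM in the dexamethasone control and 6.72, 1.5, 2.21 and 4.97 after dexamethasone. It read 13.5, 37.5, 19.1 and 47.0 in the LLC control and 23, 39.4, 8.09 and 8.70 under LLC. The dexamethasone groups differed in every library and the LLC groups overlapped. The difference was 5.47 ± 0.70 (adjusted p = 0.000433). Its paralogue Retnlg, found in neutrophils, had a difference of 5.61 ± 0.77 (adjusted p = 0.000764), with 9.15 to 59.5 TPM in the dexamethasone control, 0.778 to 1.21 after dexamethasone, 0.378 to 6.63 in the LLC control and 2.81 to 13.3 under LLC. Its response was −3.70 after dexamethasone (adjusted p = 0.000493) and 1.91 under LLC (adjusted p = 0.0666).

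For several of these genes the LLC groups were near or below the level that 3 reads allow, so a fall under LLC was not detectable at this depth. Alox15, the lipoxygenase of eosinophils, read 14.8, 6.20, 7.97 and 4.72 TPM in the dexamethasone control and at most 0.193 in any other library. Col6a5, a collagen VI chain, read 24.0, 9.36, 10.9 and 11.2 TPM there and at most 0.337 elsewhere. Rnase2a, an eosinophil ribonuclease, read 16.7, 5.40, 8.65 and 6.78 TPM there and at most 0.367 elsewhere, with 0 in 7 of the 8 LLC and LLC control libraries. These genes were present in 1 group of 4, and their differences of 2.98 ± 0.30, 3.46 ± 0.27 and 3.06 ± 0.30 passed in every fit without 1 library in which they were tested. All 3 reached 1 TPM through the dexamethasone control alone, so the filter favoured a difference and their calls are not independent support. They were tested in 12 of the 16 such fits. Ear2, a related eosinophil ribonuclease, read 23.5 to 61.6 TPM in the dexamethasone control, 1.70 to 6.41 after dexamethasone and 0.32 to 4.85 in the LLC groups. Of 10 listed genes tested the difference was higher in 4 and lower in 1 (1.76% and 2.36% of all genes). Of those 5 genes, 2 were tested only through a single group, so their calls are not independent support. The 4 became 2 without any 1 of the dexamethasone controls, when fewer of these genes could be tested. Retn family members and eosinophil ribonucleases have close paralogues, so reads may be split between them.

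On the other side, the genes lower in the difference were led by secreted proteins that dexamethasone raised. Lcn2, an iron-scavenging acute-phase protein (chr2:32384633-32388252, minus strand), read 1.14, 1.20, 1.73 and 1.02 TPM in the dexamethasone control and 132, 206, 188 and 157 after dexamethasone. It read 0.593, 3.59, 0.701 and 0.608 in the LLC control and 2.20, 4.67, 1.08 and 3.41 under LLC. Every dexamethasone library was at least 132 TPM and no other library exceeded 4.67. The difference was −5.46 ± 0.45 (adjusted p = 6.16e-06). Orm1, a plasma acute-phase glycoprotein with close paralogues, read 0.675, 1.42, 0.189 and 0.492 TPM in the dexamethasone control, 40.6, 8.51, 42.9 and 17.4 after dexamethasone and at most 1.78 in the LLC groups (difference −3.79 ± 0.56, adjusted p = 0.00128). Orm1 passed the filter only through the dexamethasone group, so the filter favoured a difference and its call is not independent support. On the list for acute-phase proteins and IL-6-type cytokines 23 genes were tested. Dexamethasone raised 7 and LLC raised 2 (8.27% and 2.15% of all genes). The difference was higher in 1 and lower in 3 (1.76% and 2.36%), the latter 5 without LLC 2.

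The methyltransferases Pnmt and Gnmt were also raised by dexamethasone alone. Of 20 tested polyamine and methyl-group enzymes, however, 5 rose and 2 fell after dexamethasone (8.27% and 3.72% of all genes). The difference was lower in 3 (2.36%). Pnmt, which turns noradrenaline into adrenaline and is a glucocorticoid target in the adrenal, read 3.37, 2.97, 3.37 and 2.58 TPM in the dexamethasone control and 62.4, 110, 67.2 and 91.5 after dexamethasone. It read 0.919, 1.89, 2.26 and 3.16 in the LLC control and 3.00, 3.91, 2.22 and 5.57 under LLC. The rise after dexamethasone was of another order than anything in the LLC groups, with a difference of −3.71 ± 0.34 (adjusted p = 1.45e-05). Gnmt, which methylates glycine, read 29.9 to 38.3 TPM after dexamethasone and 0.996 to 8.03 in the other 12 libraries, with a difference of −2.96 ± 0.43 (adjusted p = 0.00127).

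Some macrophage genes rose after dexamethasone. Of 20 tested markers 9 rose after dexamethasone (8.27% of all genes), none passed under LLC, and the difference was lower in 5 (2.36% of all genes). The median response was 0.91 after dexamethasone and −0.30 under LLC. The summed marker level was 2219 to 5455 TPM after dexamethasone, 722 to 1443 in its control, 370 to 836 in the LLC control and 140 to 523 under LLC. The count of 5 became 2 without dexamethasone control 2, dexamethasone 3, LLC control 4 or LLC 3, 3 without dexamethasone control 4 or LLC control 2, and 10 without LLC 2.

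Spp1, or osteopontin, a matrix cytokine made by macrophages in injured muscle (chr5:104435118-104441050, plus strand), read 57.4, 28.8, 41.4 and 24.9 TPM in the dexamethasone control and 914, 675, 1487 and 383 after dexamethasone. It read 7.68, 21.0, 8.88 and 26 in the LLC control and 13.6, 3.82, 3.74 and 7.76 under LLC. The dexamethasone libraries were far above the rest, and the LLC groups overlapped. Its difference was −5.40 ± 0.64 (adjusted p = 0.000212). The promoter of Spp1, 200 bases at chr5:104434911-104435110 on the plus strand, is shown because it holds the same interferon element, beginning 157 bases before the start, in a gene that moved the other way. It is 1 of the 4 among the 219 lower genes.
Spp1: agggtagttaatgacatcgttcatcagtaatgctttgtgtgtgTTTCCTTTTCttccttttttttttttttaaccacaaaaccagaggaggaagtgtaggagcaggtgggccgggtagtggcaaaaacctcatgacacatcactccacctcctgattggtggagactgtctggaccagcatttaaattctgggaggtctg

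Other genes expressed by macrophages and neighbouring stromal cells moved with it. Lyz2, the macrophage lysozyme, read 532, 419, 603 and 318 TPM in the dexamethasone control, 2212, 1355, 3343 and 1268 after dexamethasone, 235, 483, 221 and 287 in the LLC control and 243, 278, 79.3 and 181 under LLC (difference −2.77 ± 0.53, adjusted p = 0.00741). Clec4n, a lectin receptor of myeloid cells, read 13.9 to 39.9 TPM after dexamethasone and 0.401 to 4.58 elsewhere (−3.03 ± 0.54, adjusted p = 0.00493). Timp1, an inhibitor of matrix metalloproteinases, read 40.5 to 110 TPM after dexamethasone and 2.88 to 8.34 under LLC (−2.39 ± 0.44, adjusted p = 0.00608). Tnc, tenascin C of repairing matrix and tendon, read 29.9 to 87.5 TPM after dexamethasone and 1.42 to 3.67 under LLC (−3.17 ± 0.46, adjusted p = 0.00128). Prg4, a joint and tendon lubricant, read 16.1 to 38.6 TPM after dexamethasone and 3.18 to 14.8 under LLC (−3.07 ± 0.48, adjusted p = 0.00182). For all 5 genes each dexamethasone library lay above every LLC library, a contrast in which LLC was called lower in 46% of all genes. Each also lay above its own control. The dexamethasone control read 14.1 to 23.3 TPM for Timp1, 7.87 to 13.9 for Tnc and 2.43 to 4.86 for Prg4. The LLC control read 7.42 to 14.4 TPM for Timp1, 2.68 to 8.09 for Tnc and 6.64 to 10.5 for Prg4.

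Neutrophil genes gave no single picture. Of 8 tested markers 3 rose under LLC (2.15% of all genes), and 4 rose and 1 fell after dexamethasone (8.27% and 3.72%). The difference was higher in 2 and lower in 3 (1.76% and 2.36%). Of those 5 genes, 2 were tested only through a single group, so their calls are not independent support. The summed level of the 16 markers was 5.06 to 222 TPM in the LLC control, with 93.2 to 200 under LLC. The LLC count became 5 without LLC control 2 and 1 without LLC 1, LLC 2 or LLC 4, and the dexamethasone rises became 2 without dexamethasone 1, 3 or 4.

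Some protein-folding and amino-acid genes separated the responses as well. Of 21 tested genes of the unfolded protein response, which adds chaperones when the endoplasmic reticulum is loaded, 13 rose after dexamethasone (8.27% of all genes), none passed under LLC and the difference was lower in 5 (2.36% of all genes). Hspa5, the main chaperone of that compartment, read 118, 122, 120 and 117 TPM in the dexamethasone control, 167, 160, 242 and 184 after dexamethasone, 125, 123, 107 and 120 in the LLC control and 109, 115, 107 and 103 under LLC. All 4 dexamethasone libraries lay above the 12 others, and the difference was −0.76 ± 0.15 (adjusted p = 0.00758). The count of 5 fell to between 1 and 3 without dexamethasone control 1, 2 or 4, LLC control 1, 2 or 4, LLC 1 or LLC 3.

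Of 21 tested genes of the ATF4 and amino-acid response, 6 rose after dexamethasone (8.27% of all genes) and the difference was lower in 4 (2.36%). Under LLC 1 rose and 1 fell (2.15% and 0.932% of all genes). Phgdh, the first enzyme of serine synthesis, read 3.01, 2.95, 3.07 and 2.48 TPM in the dexamethasone control and 6.35, 4.91, 8.63 and 5.68 after dexamethasone. It read 1.54, 1.72, 1.36 and 1.19 in the LLC control and 0.959, 1.06, 0.763 and 1.35 under LLC. The dexamethasone groups did not overlap, and the difference was −1.18 ± 0.19 (adjusted p = 0.00263). Slc7a5, a transporter of large neutral amino acids, read 5.73 to 9.09 TPM after dexamethasone and 0.614 to 1.45 under LLC (−1.45 ± 0.24, adjusted p = 0.00348). It read 2.44 to 3.60 in the dexamethasone control and 0.868 to 2.06 in the LLC control. Atf4 itself, whose protein is controlled largely by translation, passed in neither response (0.10 under LLC, adjusted p = 0.718; 0.07 after dexamethasone, adjusted p = 0.772).

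Of 27 tested genes for denervation, the loss of a nerve, or the nerve-muscle junction, 11 rose after dexamethasone (8.27% of all genes). Of the 27, 1 fell (3.72%), none passed under LLC and 6 were lower in the difference (2.36%). Of the 6, 1 was tested only through a single group, so its call is not independent support. The count of 6 became 3 without dexamethasone control 2, dexamethasone control 4, dexamethasone 3, LLC control 4 or LLC 3. The 11 became 7 without dexamethasone control 1 or 4. Runx1, a transcription factor induced by denervation and also active in blood cells, read 2.23, 3.36, 3.57 and 2.40 TPM in the dexamethasone control and 9.03, 8.94, 12 and 6.69 after dexamethasone. It read 1.29, 1.98, 0.654 and 1.11 in the LLC control and 0.975, 1.34, 0.377 and 1.29 under LLC. The LLC groups overlapped and the dexamethasone groups did not (difference −1.55 ± 0.29, adjusted p = 0.00651). Ncam1, an adhesion molecule of denervated fibres, read 4.79 to 10.2 TPM in the dexamethasone control and 17.0 to 28.3 after dexamethasone. It read 1.67 to 6.32 in the LLC control and 1.48 to 4.15 under LLC (difference −1.75 ± 0.42, adjusted p = 0.0277). That call was lost without dexamethasone control 1, 2 or 4, dexamethasone 3, LLC control 4 or LLC 3 (adjusted p from 0.0584 to 0.0644), and with no filter on low values, a pseudocount of 0.1, the replicate number as a block across experiments or all 8 groups in the fit (0.0551 to 0.0677). Sln, sarcolipin, a regulator of the sarcoplasmic calcium pump, rose by 2.82 ± 0.54 after dexamethasone (adjusted p = 0.00359) but did not pass in the difference (−2.15 ± 0.77, adjusted p = 0.133). Myog, the myogenic factor that controls many of these genes, passed in neither response (adjusted p = 0.928 and 0.103).

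**Figure D3:**
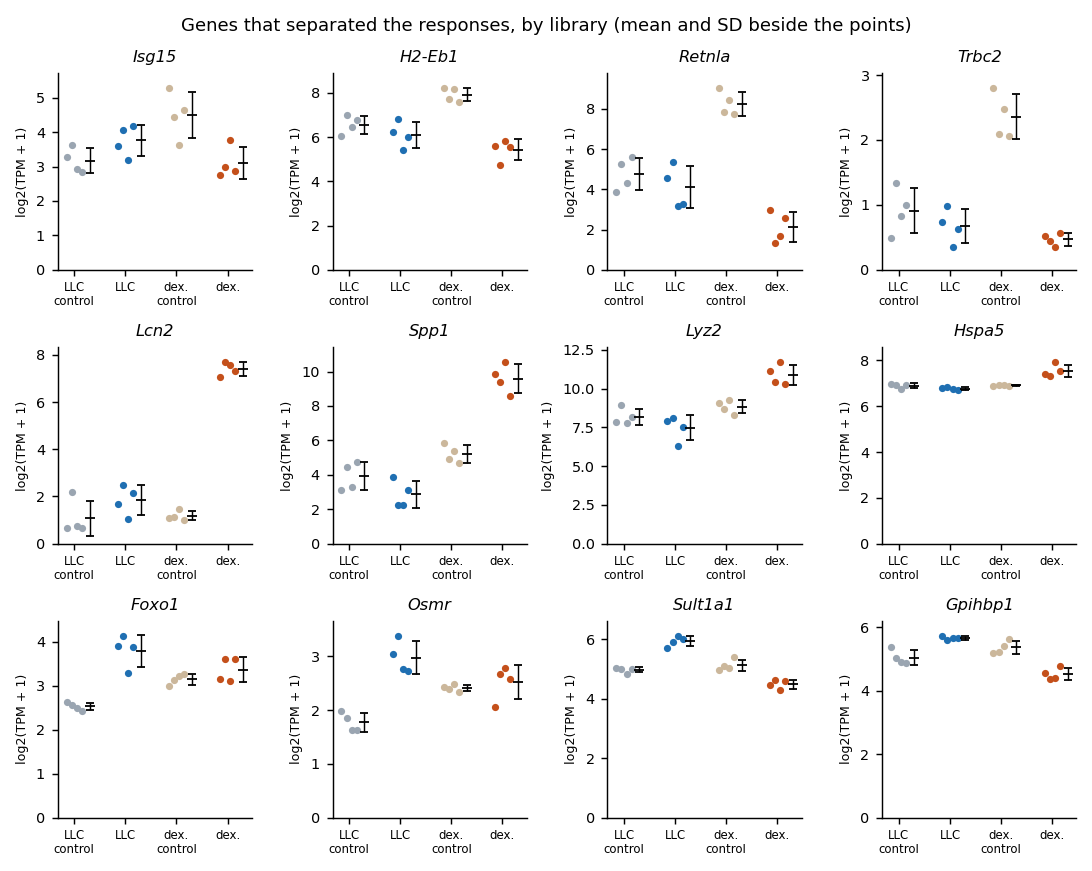
Log2(TPM + 1) of 12 genes in the 16 libraries, with the mean and SD of the 4 libraries of a group beside the points. The top row shows genes high in the dexamethasone control, the middle row genes raised after dexamethasone, and the bottom row Foxo1 and Osmr, raised under LLC, beside Sult1a1 and Gpihbp1, which rose under LLC and fell after dexamethasone.

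Fewer genes were raised by LLC and not by dexamethasone. Foxo1, a transcription factor that drives atrophy genes when insulin signalling is low (chr3:52268336-52353221, plus strand), read 5.17, 4.92, 4.63 and 4.38 TPM in the LLC control and 13.8, 16.4, 8.68 and 13.6 under LLC. It read 6.90, 7.70, 8.24 and 8.59 in the dexamethasone control and 7.84, 11.1, 7.58 and 11.2 after dexamethasone. LLC lay above its control in all libraries, and dexamethasone overlapped its own. The difference was 1.04 ± 0.23 (adjusted p = 0.0151), from a rise of 1.26 under LLC (adjusted p = 0.0008) and a response of 0.22 after dexamethasone (adjusted p = 0.399).

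Osmr, the receptor chain for oncostatin M and so a gate for IL-6-type signals (chr15:6813577-6874969, minus strand), read 2.94, 2.61, 2.08 and 2.1 TPM in the LLC control and 7.22, 9.40, 5.83 and 5.61 under LLC. It read 4.37, 4.28, 4.61 and 4.03 in the dexamethasone control and 3.18, 5.36, 5.88 and 4.94 after dexamethasone. LLC again lay above its control without overlap (difference 1.10 ± 0.23, adjusted p = 0.011). Cd36, a fatty acid transporter of fibres and capillaries, read 211, 208, 214 and 173 TPM in the LLC control, 416, 367, 421 and 261 under LLC, 263 to 285 in the dexamethasone control and 263 to 309 after dexamethasone (0.80 ± 0.18, adjusted p = 0.0175). In TPM as deposited the difference did not pass for Foxo1, Osmr or Cd36 (adjusted p = 0.107, 0.0633 and 0.111), nor for Foxo1 and Cd36 in the fit of all 8 groups (0.0641 and 0.0949).

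Red cell genes rose under LLC in 5 of 5 tested (2.15% of all genes) and after dexamethasone in none (8.27%). The difference was higher in 3 (1.76%). Hbb-bs, an adult beta globin that shares sequence with Hbb-bt, read 458, 649, 578 and 512 TPM in the LLC control and 6350, 4401, 874 and 1838 under LLC. It read 751, 818, 861 and 890 in the dexamethasone control and 593, 585, 971 and 790 after dexamethasone. LLC 1 and LLC 2 were far higher than LLC 3, and the dexamethasone groups overlapped (difference 2.45 ± 0.59, adjusted p = 0.0264). Leaving out LLC control 4, or dexamethasone control 2 or 4, ended the call (adjusted p = 0.0568, 0.0557 and 0.0578), as did no filter, the fit of all 8 groups and the block across experiments (0.0541 to 0.0563). Alas2, the first enzyme of haem synthesis in red cell precursors, read 65.0, 57.3, 7.26 and 15.2 TPM under LLC and 2.38 to 5.43 in its control, and its difference (2.56 ± 0.67, adjusted p = 0.0404) was lost without any 1 of 13 of the 16 libraries, with LLC control 2, LLC 3 and LLC 4 the exceptions, and under those 3 settings and robust variances (0.0536 to 0.0762). The number of red cell genes higher in the difference was 0 or 1 without any 1 of 13 libraries and 5 without LLC 3. The 5 that rose under LLC became 3 without LLC control 1, 3 or 4, LLC 1 or LLC 2. The summed level of the 8 red cell markers was 1811 to 15420 TPM under LLC and 1066 to 1494 in its control.

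As a list, genes known as targets of the glucocorticoid receptor did not single out dexamethasone. Of 26 tested, 6 rose under LLC (2.15% of all genes), and 5 rose and 1 fell after dexamethasone (8.27% and 3.72%). The difference was higher in 3 (1.76%) and lower in 2 (2.36%). Those 2 were Lcn2 and Pnmt, given above, which dexamethasone alone raised and which were among the largest differences. The median response was 0.66 under LLC and 0.01 after dexamethasone. Tsc22d3, the anti-inflammatory protein GILZ, read 139, 168, 120 and 129 TPM in the LLC control, 152, 190, 195 and 279 under LLC, 74.6, 114, 101 and 117 in the dexamethasone control and 85.2, 120, 79.3 and 139 after dexamethasone. Its groups overlapped in both experiments and neither response passed (0.53 ± 0.20, adjusted p = 0.166; 0.04 ± 0.20, adjusted p = 0.913). Klf15, a receptor target that promotes amino acid breakdown, read 24.1, 24.3, 28.4 and 28.3 TPM in the LLC control and 66.0, 56.4, 41.5 and 50.3 under LLC. It read 28.4, 35.2, 31.2 and 31.0 in the dexamethasone control and 23.9, 42.2, 21.0 and 38.1 after dexamethasone. It rose under LLC by 0.98 ± 0.18 (adjusted p = 0.00981), and its difference of 1.04 ± 0.26 (adjusted p = 0.0325) was lost without any 1 of 9 libraries: dexamethasone controls 2, 3 and 4, dexamethasone 3, LLC controls 1, 2 and 4, LLC 1 and LLC 2. In TPM as deposited neither the rise nor the difference of Klf15 passed (adjusted p = 0.0776 and 0.126), and with no filter the difference did not (0.0571). Glul, glutamine synthetase, rose by 1.67 under LLC (adjusted p = 0.00123) and had a difference of 1.16 that did not pass (adjusted p = 0.0533). The list's count of 3 became 1 without any 1 of 7 libraries and 5 without dexamethasone 2; its count of 5 after dexamethasone became 2 without dexamethasone control 1 or 4 or dexamethasone 3, 3 without dexamethasone control 2 and 8 without LLC 3.

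Metabolic lists leaned the same way with few calls. Of 26 fatty acid oxidation genes 6 rose under LLC (2.15% of all genes), and 1 rose and 1 fell after dexamethasone (8.27% and 3.72%). The difference was positive in 25 and passed as higher in 1 (1.76%). The LLC count was 0 to 3 without LLC control 2, 3 or 4 or LLC 1 or 2, and 10 to 12 without dexamethasone 1 or 2 or LLC 4. Of 53 nuclear genes of oxidative phosphorylation 13 fell after dexamethasone (3.72% of all genes) and none passed under LLC. The difference passed as higher in 1 (1.76%), with a median of 0.33. That 13 became 2 or 3 without dexamethasone control 1, 2 or 4 or dexamethasone 3, 5 and 7 without dexamethasone 2 and 4, and 29 without dexamethasone 1. In TPM as deposited the median difference was −0.05 for fatty acid oxidation and −0.10 for oxidative phosphorylation, so the direction of both lists depended on the scaling.

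**Figure D4:**
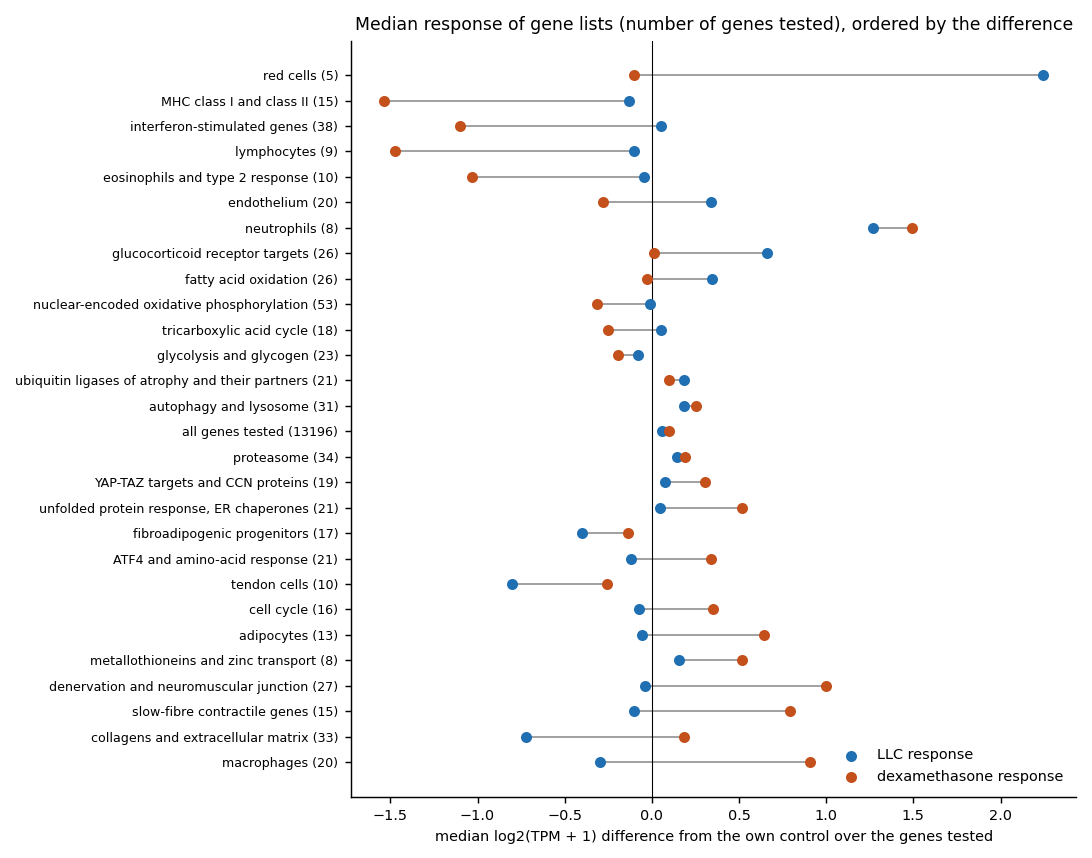
Median response of gene lists over their tested genes, under LLC (blue) and after dexamethasone (orange), in log2(TPM + 1) differences from the own control; lists are ordered by the median difference and the number of genes tested stands in parentheses. The 12 lists at each end are drawn with the ubiquitin ligases, proteasome, autophagy and all genes tested between them; interferon, MHC and lymphocyte lists differ through the orange point, red cells through the blue.

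The 24 genes that passed in both responses with opposite sign were split into 17 that rose under LLC and fell after dexamethasone and 7 that did the reverse, and each also passed in the difference. That the difference passed in them follows largely from their choice. Without LLC control 4 the count was 7, without dexamethasone controls 1 to 4 in turn 13, 12, 14 and 15, and without dexamethasone 1 it was 41.

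Sult1a1, a sulfotransferase of phenols and hormones (chr7:126672865-126676432, minus strand), read 31.8, 31.0, 27.6 and 30.7 TPM in the LLC control and 51.4, 58.5, 67.6 and 63.1 under LLC. It read 30.3, 33.3, 31.8 and 40.9 in the dexamethasone control and 20.7, 23.7, 18.3 and 23 after dexamethasone. The controls overlapped, LLC lay above them in all libraries and dexamethasone below them in all. The response was 0.96 under LLC (adjusted p = 0.00021) and −0.64 after dexamethasone (adjusted p = 0.0016), and the difference was 1.61 ± 0.15. Both of its calls passed without any single library.

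Endothelial genes were among the 24. Of 20 tested markers 5 rose under LLC (2.15% of all genes), 5 fell after dexamethasone (3.72%) and 3 did both (0.129%). The difference was higher in 7 (1.76% of all genes) and positive in 20. The summed marker level was 1389 to 1708 TPM in the LLC control and 1984 to 2293 under LLC, against 1899 to 2106 in the dexamethasone control and 1497 to 1687 after dexamethasone, without overlap in either experiment. The LLC count was 3 without LLC control 4 and 8 without dexamethasone 2; the dexamethasone count was 3 without any 1 of the 4 dexamethasone controls and 9 without LLC 4. The count in the difference moved by less than 1.5 times without each library.

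Aqp1, the capillary water channel, read 450, 396, 405 and 359 TPM in the LLC control and 559, 626, 757 and 558 under LLC. It read 386, 444, 476 and 569 in the dexamethasone control and 273, 356, 301 and 339 after dexamethasone. Neither pair of groups overlapped, and the difference was 1.18 ± 0.18 (adjusted p = 0.00167). Gpihbp1, which anchors lipoprotein lipase to capillaries, read 40.6, 31.3, 28.8 and 28.0 TPM in the LLC control, 51.6, 47.0, 49.9 and 49.1 under LLC, 35.6, 36.2, 41.6 and 48.4 in the dexamethasone control and 22.5, 19.7, 20 and 26.4 after dexamethasone (1.46 ± 0.18, adjusted p = 0.000238). The LLC response of both was lost without LLC control 4 (adjusted p = 0.0628 for Aqp1 and 0.0555 for Gpihbp1) in TPM as deposited (0.133 and 0.188) and under quantile normalization (0.0501 and 0.0584), while their differences passed. The fall of Aqp1 after dexamethasone was also lost in TPM as deposited (−0.28, adjusted p = 0.116).

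Scarb1, the HDL receptor, stood at 11.3, 13, 11.4 and 11.4 TPM in the LLC control and 17.2, 24.1, 20.3 and 21.1 under LLC. It stood at 25.5, 22.6, 26.3 and 24.9 in the dexamethasone control and 14.7, 17.3, 17.2 and 17.4 after dexamethasone. The groups of each experiment were fully apart, from unequal controls, and the difference was 1.31 ± 0.14 (adjusted p = 5.5e-05). Its fall after dexamethasone did not pass in TPM as deposited (adjusted p = 0.0822). Pecam1 and Esam, junction proteins of endothelial cells, had differences of 0.84 ± 0.15 and 0.96 ± 0.15 (adjusted p = 0.00411 and 0.0015), but the dexamethasone responses of Pecam1 (−0.35) and Esam (−0.33) were lost without any 1 dexamethasone control, and without dexamethasone 1 or 2 for Pecam1 and dexamethasone 1 or 3, LLC control 2, 3 or 4 or LLC 1 for Esam. The LLC response of Pecam1 (0.49) was lost without LLC control 3 or 4. Ly6c1, a surface protein of capillaries and monocytes, rose under LLC by 0.86 ± 0.14 (adjusted p = 0.0038) and had a response of −0.19 after dexamethasone (adjusted p = 0.411). In TPM as deposited the difference did not pass for Pecam1, Esam or Ly6c1 (adjusted p = 0.115, 0.0717 and 0.0631), nor did either response of Pecam1 (0.316 under LLC and 0.623 after dexamethasone) or Esam (0.148 and 0.723). The fall of Esam was also lost with a pseudocount of 0.1, array weights, the block across experiments and all 8 groups (0.0504 to 0.125). Scarb1 and Pecam1 were named after their values were seen.

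Matrix genes ran the other way. Of 33 collagens and matrix genes tested, 9 fell under LLC (0.932% of all genes), and 6 rose and 2 fell after dexamethasone (8.27% and 3.72%). The difference was lower in 6 and higher in 1 (2.36% and 1.76%). The median response was −0.72 under LLC and 0.19 after dexamethasone. Col5a1, which starts collagen I fibrils, read 18.6, 26.1, 16.9 and 23.2 TPM in the LLC control and 11.6, 12.3, 5.57 and 7.13 under LLC. It read 45.5, 36.6, 60.5 and 51.5 in the dexamethasone control and 57.1, 112, 128 and 60.3 after dexamethasone. LLC lay below its control in every library and dexamethasone overlapped its own (difference −1.97 ± 0.38, adjusted p = 0.00756). The LLC response of Col5a1, −1.17 ± 0.27, was lost without LLC control 1, 2 or 4, LLC 3 or LLC 4 (adjusted p from 0.0514 to 0.079) and with no filter (0.0593). In the fit of all 8 groups neither that response nor the difference passed (0.0995 and 0.0517). The list's count in the difference was 3 without dexamethasone control 2, dexamethasone 3 or LLC control 4 and 10 without LLC 2; its 9 under LLC became 4 without LLC control 1, 2 without LLC control 2, LLC control 4 or LLC 4, and 5 without LLC 3. Its 6 after dexamethasone became 1 or 2 without dexamethasone control 1, 2 or 4 or dexamethasone 2 or 3.

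Lyz1, the intestinal lysozyme, whose reads could be split with Lyz2, read 6.54, 7.46, 6.97 and 9.07 TPM in the LLC control, 5.05, 3.77, 2.18 and 2.54 under LLC, 3.96, 4.61, 4.06 and 5.13 in the dexamethasone control and 16.4, 8.12, 12.5 and 8.02 after dexamethasone. It moved apart in both experiments without overlap, and the difference was −2.12 ± 0.30 (adjusted p = 0.00106). Its fall under LLC was lost without LLC control 4 or LLC 4 (adjusted p = 0.0691 and 0.0557), and in the fit of all 8 groups (0.167), where its rise after dexamethasone did not pass either (0.0621). Pf4, a chemokine of platelets and macrophages, read 22.6, 29.9, 23.2 and 18.3 TPM in the LLC control and 12.8, 17.4, 5.92 and 9.45 under LLC. It read 22.5, 16.6, 25.3 and 14.4 in the dexamethasone control and 71.2, 48.6, 95.9 and 51.2 after dexamethasone, and the difference was −2.75 ± 0.38 (adjusted p = 0.000896). Its LLC response of −1.06 (adjusted p = 0.0447) was lost without any 1 of 10 libraries, with dexamethasone control 4, the 4 dexamethasone libraries and LLC 2 the exceptions, and in TPM as deposited, with no filter, robust variances, the block across experiments or all 8 groups (0.0509 to 0.119).

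What united the responses was a smaller set. Both raised 48 genes (0.364% of those tested), which made 16.9% of the LLC rises and 4.4% of the dexamethasone rises. Both lowered 29 (0.22%), or 23.6% of the LLC falls and 5.91% of the dexamethasone falls. Over all genes tested 8.27% rose and 3.72% fell after dexamethasone, and 2.15% rose and 0.932% fell under LLC, so each of these shares was above that of all genes. Of these 77 genes (0.584% of those tested) 76 did not pass in the difference, and in 65 of the 76 its 95% interval lay within 1 log2 unit of zero, as it did in 84.6% of all genes. In 36 of the 76 it lay within 0.5. A difference that does not pass does not show that the responses were equal. Without 1 library the number raised by both ran from 20 (without LLC control 1 or 4) to 194 (without dexamethasone 1), with 81 without LLC 3, 22 to 29 without LLC control 2 or 3, LLC 1, 2 or 4 or dexamethasone control 1, 3 or 4. The number lowered by both was 13 without LLC control 4, 15 without LLC 4, 16 without LLC control 3 and 18 without LLC control 1, LLC control 2 or LLC 1. Median-of-ratios scaling gave 26 raised and 77 lowered by both.

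Fkbp5, a chaperone of the glucocorticoid receptor and its best-known target (chr17:28399094-28517527, minus strand), read 13.9, 11.2, 15.6 and 10.6 TPM in the LLC control and 64.2, 67.7, 18.4 and 55.7 under LLC. It read 10.8, 12.8, 11.6 and 12.1 in the dexamethasone control and 16.9, 43.5, 27.5 and 29.3 after dexamethasone. Every treated library lay above every control, LLC 3 and dexamethasone 1 by the least. It rose by 1.78 ± 0.32 under LLC (adjusted p = 0.00802) and by 1.17 ± 0.32 after dexamethasone (adjusted p = 0.0268), and the difference was 0.61 ± 0.46 (adjusted p = 0.56). The rise after dexamethasone was lost without any 1 of the 4 dexamethasone controls or dexamethasone 2, 3 or 4 (adjusted p from 0.0541 to 0.0766).

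Actn1, a non-muscle alpha-actinin that crosslinks actin (chr12:80167547-80260371, minus strand), read 7.21, 8.55, 5.31 and 6.37 TPM in the LLC control and 12.5, 13.3, 12 and 12.9 under LLC. It read 16.4, 16, 18.4 and 17.4 in the dexamethasone control and 23.6, 31.2, 41.1 and 26.3 after dexamethasone. It rose in both without overlap, from controls that themselves differed, by 0.82 ± 0.15 and 0.78 ± 0.15 (adjusted p = 0.00706 and 0.00292), with a difference of 0.04 ± 0.21. Asb11, a substrate receptor of a ubiquitin ligase (chrX:164436994-164459170, plus strand), read 115, 84.5, 111 and 108 TPM in the LLC control, 176, 212, 161 and 192 under LLC, 87.4, 98.6, 88.1 and 93.5 in the dexamethasone control and 140, 159, 116 and 166 after dexamethasone. Its rises were 0.82 ± 0.12 and 0.64 ± 0.12 (adjusted p = 0.00205 and 0.00313). Both genes passed in both responses without any single library, but their rise under LLC did not pass in TPM as deposited (adjusted p = 0.08 for Actn1 and 0.0596 for Asb11).

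Lrg1, a glycoprotein of the acute phase and of vessel growth, Mid1ip1, which promotes fatty acid synthesis, and Tango2, whose loss in people causes muscle breakdown, rose in both with less support. Lrg1 rose by 0.90 ± 0.20 under LLC (adjusted p = 0.026) and 1.46 ± 0.20 after dexamethasone (adjusted p = 0.000363). Its LLC call was lost without LLC control 2, 3 or 4 or LLC 1, 2 or 4 (adjusted p from 0.0638 to 0.0841), in TPM as deposited (0.189) and with no filter (0.055). Mid1ip1 rose by 1.32 ± 0.18 and 0.67 ± 0.18 (adjusted p = 0.00123 and 0.0238), the latter lost without dexamethasone control 1 or 4 (0.0836 and 0.0508). Tango2 rose by 0.77 ± 0.16 and 0.72 ± 0.16 (adjusted p = 0.0159 and 0.00798), the former lost without LLC control 2 (0.0525). The promoters of genes raised by both held ACANNNTGT in 6 of 41 (14.6%), against 4.13% of all tested genes and 6.9% of the 27025 promoters in the table. The full palindromic glucocorticoid response element occurred in 0 of the 41 and 0 of the 9881.

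Genes lowered by both included several of tendon and matrix cells and of the fibre itself. Cited4, a transcriptional co-regulator linked to exercise-induced growth of heart muscle (chr4:120666572-120667820, plus strand), read 29.8, 33.4, 26.4 and 31.8 TPM in the LLC control and 5.85, 9.68, 8.27 and 9.87 under LLC. It read 41.7, 33.5, 48.0 and 35.2 in the dexamethasone control and 17.3, 14.5, 27.8 and 25.9 after dexamethasone. Both falls were free of overlap, 1.75 under LLC (adjusted p = 0.000144) and 0.89 after dexamethasone (adjusted p = 0.00644), with a difference of −0.86 ± 0.27 that did not pass (adjusted p = 0.0848). Nrep, a small protein of regenerating nerve and of matrix-forming cells, read 158, 163, 255 and 201 TPM in the LLC control, 51.4, 83.7, 136 and 53.3 under LLC, 339, 225, 276 and 281 in the dexamethasone control and 98.0, 86.5, 123 and 112 after dexamethasone. Its responses of −1.34 ± 0.25 and −1.41 ± 0.25 (adjusted p = 0.00914 and 0.00205) were close in size.

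Tnmd, tenomodulin of tendon cells (chrX:133850980-133865577, plus strand), read 12.7, 10.1, 12.3 and 19.4 TPM in the LLC control, 4.55, 6.29, 7.29 and 2.49 under LLC, 7.35, 12.5, 12.2 and 14.8 in the dexamethasone control and 4.41, 3.49, 3.07 and 4.45 after dexamethasone. Kera, a keratan sulfate proteoglycan of tendon and cornea, read 10, 12.3, 16.1 and 14.5 TPM, then 3.78, 3.41, 9.63 and 1.92, then 4.25, 6.61, 6.24 and 7.90, then 1.64, 0.668, 0.968 and 1.46 in the same order of groups. In both genes every treated library lay below every control of its experiment, with differences of 0.08 ± 0.36 and 0.26 ± 0.41. In the fit of all 8 groups the fall of Tnmd under LLC did not pass (adjusted p = 0.0593). The 10 tested tendon markers were not uniform. Of these, 2 fell in both responses (0.22% of all genes), 2 rose after dexamethasone (8.27%) and 2 passed as lower in the difference (2.36%).

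Amd1, which makes the aminopropyl donor for polyamines and has near-identical copies in the genome, read 1016, 1203, 1630 and 1315 TPM in the LLC control, 413, 830, 734 and 586 under LLC, 893, 635, 874 and 768 in the dexamethasone control and 343, 374, 521 and 479 after dexamethasone. It fell by 1.04 ± 0.20 under LLC and by 0.89 ± 0.20 after dexamethasone (adjusted p = 0.0122 and 0.00998), but in the fit of all 8 groups neither fall passed (0.0928 and 0.0833). Cacna2d4, an auxiliary calcium channel subunit, fell by 0.87 ± 0.14 and 0.93 ± 0.14 (adjusted p = 0.00384 and 0.000633), from 8.80 to 11.2 TPM down to 3.84 to 6.14 and from 7.69 to 8.70 down to 2.93 to 4.66. Mettl21c, a muscle lysine methyltransferase, fell by 1.72 ± 0.34 and 1.39 ± 0.34 (adjusted p = 0.0136 and 0.0158), calls lost without LLC control 4 (0.0503) and dexamethasone control 1 (0.0599). None of the 3 had a difference that passed.

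Ighm, the IgM heavy chain, was unlike the other lymphocyte genes. It read 102, 77.5, 93.1 and 119 TPM in the LLC control, 26.4, 32.6, 46.0 and 44.6 under LLC, 87.6, 57.3, 72.0 and 98.7 in the dexamethasone control and 19.3, 35.0, 27.1 and 29.9 after dexamethasone. Both treated groups lay below their controls without overlap, with responses of −1.38 ± 0.21 and −1.47 ± 0.21 (adjusted p = 0.00245 and 0.000384), and the gap between its controls did not pass (0.32 ± 0.21, adjusted p = 0.232). In the fit of all 8 groups neither fall passed (adjusted p = 0.397 and 0.27).

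Fmo2, a flavin monooxygenase (chr1:162874317-162898726, minus strand), was the 1 gene that rose in both and also passed in the difference. It read 7.49, 8.37, 8.71 and 6.78 TPM in the LLC control and 27.4, 25.1, 23.6 and 26.4 under LLC. It read 9.29, 12.7, 10.1 and 10.6 in the dexamethasone control and 13.8, 18.6, 15.3 and 17.0 after dexamethasone. No groups overlapped within an experiment, and the rise under LLC (1.59 ± 0.11, adjusted p = 5.6e-07) exceeded that after dexamethasone (0.56 ± 0.11, adjusted p = 0.00402) by 1.04 ± 0.15 (adjusted p = 0.00143).

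**Figure D5:**
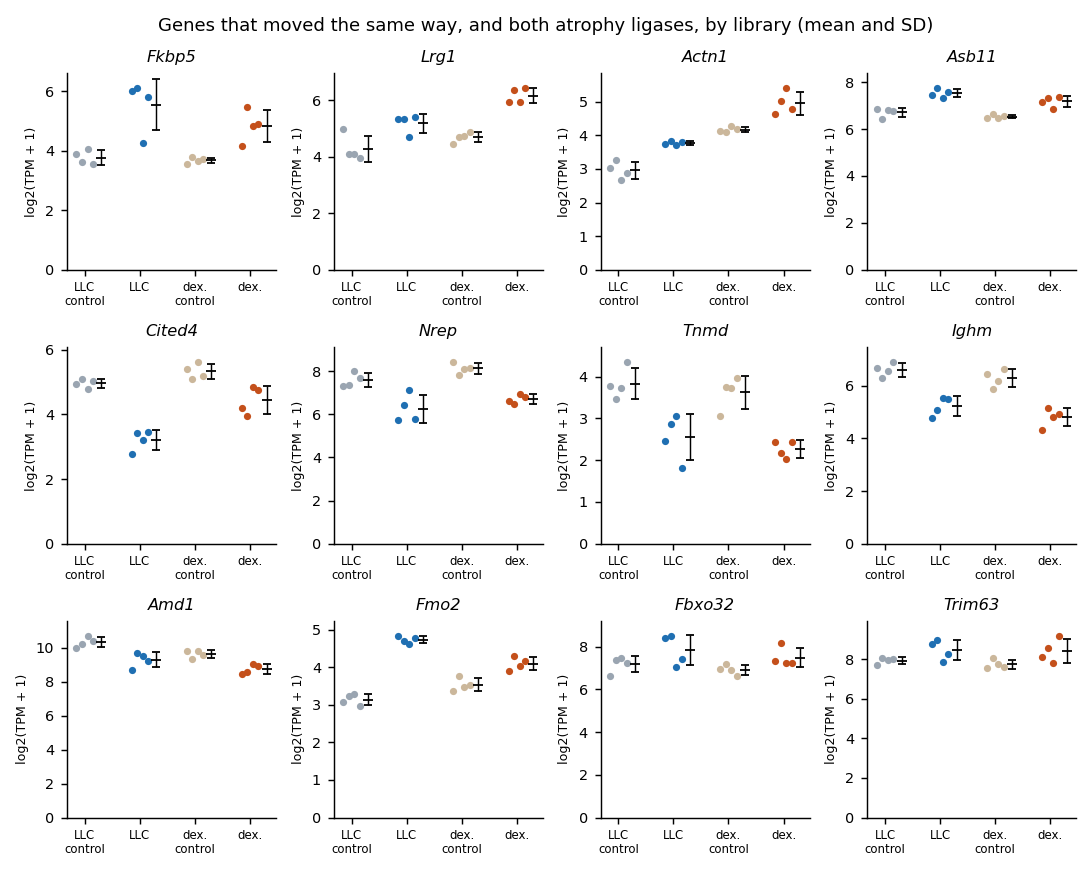
Log2(TPM + 1) of 12 genes in the 16 libraries, with the mean and SD of each group beside the points. Fkbp5 to Fmo2 moved the same way in both experiments, Fmo2 by unequal amounts; Fbxo32 and Trim63, in the last panels, overlap between treated and control libraries in the LLC experiment.

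Protein-breakdown genes did not pass in the difference on any of 3 lists. Of 31 autophagy and lysosome genes tested 4 rose under LLC and 7 after dexamethasone (2.15% and 8.27% of all genes). Lamp1, a lysosomal membrane protein, was on both sides. Of 34 proteasome genes 1 rose under LLC (Psma1) and 5 after dexamethasone, beside the same shares of all genes. Without 1 library these counts of 4, 7 and 5 ran from 2 to 5, 3 to 11 and 1 to 7. Of 21 tested ubiquitin ligases of atrophy and their partners, 0 passed in the LLC response, 0 after dexamethasone and 0 in the difference. Fbxo32, or atrogin-1, read 98.5, 166, 179 and 151 TPM in the LLC control, 340, 360, 130 and 173 under LLC, 123, 147, 117 and 97.2 in the dexamethasone control and 159, 287, 150 and 148 after dexamethasone. Its responses were 0.66 ± 0.30 and 0.57 ± 0.30 (adjusted p = 0.249 and 0.227), and the difference was 0.09 ± 0.42. Trim63, or MuRF1, read 207, 272, 247 and 257 TPM in the LLC control, 440, 499, 230 and 310 under LLC, 188, 267, 214 and 195 in the dexamethasone control and 273, 383, 223 and 578 after dexamethasone. Its responses were 0.53 ± 0.26 and 0.67 ± 0.26 (adjusted p = 0.286 and 0.102), and the difference was −0.14 ± 0.37. In both genes LLC 1 and LLC 2 were high and LLC 3 was within the range of its control.

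Among other genes linked to muscle mass Foxo1 passed in the difference, as given above, and on the list for myostatin, activin and SMAD signalling 1 of 22 tested genes did (Fst, an inhibitor of myostatin and activins, lower). The difference did not pass in Mstn, Socs3, Mt2, Pdk4, Myh4 or Cyr61. Mstn, which restrains muscle growth, had responses of 0.47 ± 0.18 and 0.18 ± 0.18, and its difference was 0.29 ± 0.26 (adjusted p = 0.658). Socs3, the feedback inhibitor of IL-6-type signalling, had a difference of 0.40 ± 0.55 (adjusted p = 0.802), Mt2, a metallothionein, −1.70 ± 1.25 (adjusted p = 0.554), Pdk4, which turns fibres away from glucose, 0.77 ± 0.63 (adjusted p = 0.607), and Myh4 −0.20 ± 0.31 (adjusted p = 0.826). Cyr61, a secreted matrix protein and YAP target, rose after dexamethasone by 0.83 ± 0.23 (adjusted p = 0.0273), had a response of 0.47 ± 0.23 under LLC (adjusted p = 0.286) and a difference of −0.36 ± 0.33 (adjusted p = 0.662). Leaving out dexamethasone control 1, dexamethasone control 4, dexamethasone 2 or dexamethasone 4 ended that call (adjusted p = 0.067, 0.0888, 0.0771 and 0.05). Standard errors of this size leave room for unequal responses. In simulated data of the same design, changes were given to the LLC group in some genes with an LLC control mean of at least 5 TPM. Of these, 40.3% of 1.5-fold, 74.6% of 2-fold and 98.5% of 4-fold differences were called. Those shares average over genes of unlike spread and do not give the chance of a call for Mt2, Pdk4 or Socs3.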

How the data were processed

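Poly(A) RNA of 16 muscle samples was sequenced with TruSeq stranded mRNA libraries on a NovaSeq instrument, per the labels. The authors deposited TPM for each gene and library, with mm10 named in the submitters' processing notes; no source used here names the aligner, counter or annotation. Here the 37 mt- rows were removed, each library was rescaled to the same total, and log2(TPM + 1) was taken of 13196 genes with at least 1 TPM in at least 4 libraries. One limma-trend fit (limma 3.58.1, R 4.3.3) of 4 group means gave each contrast, with two-sided Benjamini-Hochberg adjusted p under 0.05. Fold changes on this scale understate changes of low genes.

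Genes were named by a rule: the largest differences, opposite and shared responses with a group mean of at least 5 TPM, up to 4 genes per list, and 12 fixed genes. Irf7, Gbp2, Psmb9, Tap1, H2-K1, Rsad2, Trim30a, Pecam1, Scarb1, Lamp1 and Psma1, and the values given for Atf4, Myog and Glul, fall outside it; a gene that the rule names is not reported here. Members and the 49 lists were chosen with earlier results of these data known, so no list is independent evidence. Positions are from GENCODE M21 (GRCm38), promoters from RefSeq. The fit was tested on simulated data. Alternatives covered scaling, pseudocount, filter, variance model, the replicate block, thresholds and each library left out.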

Additional observations from a re-analysis of the deposited data

Results flagged for a closer look

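In 300 groups of 4 libraries, 1 per named gene and group, a library was marked where it lay far from the other 3 by Dixon's criterion, which chance meets in about 1 group in 20; 19 did. All values are in TPM, with the range of the other 3 libraries of the group.

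Among the immune genes, Irf7 read 12.2 in LLC control 2 (8.38 to 8.50 in the others) and 9.78 in dexamethasone control 3 (22.4 to 23.8). Igkc read 23.6 in LLC 4 (1.92 to 2.46). Rnase2a read 0.248 in LLC 2 (0 in the others), and Lcn2 3.59 in LLC control 2 (0.593 to 0.701).

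Of the matrix, transport and vessel genes, Tnc read 3.67 in LLC 1 (1.42 to 1.70) and 13.9 in dexamethasone control 3 (7.87 to 8.44), where Slc7a5 read 3.60 (2.44 to 2.57). Cd36 read 173 in LLC control 4 (208 to 214) and Ly6c1 119 in dexamethasone control 4 (138). Scarb1 read 13 in LLC control 2 (11.3 to 11.4) and 14.7 in dexamethasone 1 (17.2 to 17.4).

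For genes that moved in both responses or regulate muscle mass, Fkbp5 read 18.4 in LLC 3 (55.7 to 67.7) and Lrg1 24.8 in the same library (39.3 to 41.4) and 30.4 in LLC control 1 (14.7 to 16.3). Mid1ip1 read 126 in dexamethasone 2 (62.3 to 70), as did Fbxo32 at 287 (148 to 159). Socs3 read 16.8 in LLC control 1 (4.32 to 5.54) and Mstn 25.6 in dexamethasone 1 (32.5 to 33.3).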

How the results depend on the processing

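Of 161 calls of named genes 131 held without each library in turn. Over 5271 refits of 171 named results 4936 kept direction and side of the threshold, 321 lost the call, 2 (Sln) gained it and 12 changed sign; causes were not tested. No refit gave a called difference the other sign. With TPM as deposited, where the median difference over all genes was −0.37 against −0.02 as reported, the difference was higher in 104 and lower in 2533 genes, LLC raised 34, dexamethasone raised 5370 and lowered 200, both raised 7 and the LLC control was lower in 3085. Median-of-ratios scaling gave 280 LLC falls, 593 dexamethasone rises and 758 falls, 26 raised and 77 lowered by both, and controls lower in 3200 and higher in 1875. Without the 20 top genes there were 147 LLC rises, 20 raised and 45 lowered by both and 552 higher controls. Quantile normalization gave 388 higher, 193 LLC falls, 978 dexamethasone falls, 23 raised and 62 lowered by both, and controls lower in 1960 and higher in 2164. No filter gave 571 higher controls; a filter of 5 TPM gave 147 higher, 191 lower and controls lower in 3571 and higher in 220. The fit of all 8 groups gave 19 lowered by both and 14 opposite. Array weights gave 566 higher, 971 lower, 756 and 288 LLC rises and falls, 4780 and 1229 dexamethasone rises and falls, 395 raised and 80 lowered by both, 95 opposite and 759 higher controls.

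Replicate numbers do not pair these libraries by label, and same-number correlations of 0.0245 to 0.457 were not all above 0.1. With the replicate block within experiments the difference was lower in 637 genes, LLC raised 450 and lowered 225, both raised 99 and lowered 46, 66 were opposite, and controls were lower in 2362 and higher in 217; with the block across experiments 206 were lower.

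An adjusted p under 0.01 left 93 higher, 87 lower, 68 LLC rises, 19 LLC falls, 355 dexamethasone rises, 219 falls, 7 raised and 4 lowered by both, 4 opposite and 171 higher controls. A log2 value of at least 1 left 133, 178, 39, 36, 175, 115, 1, 7 and 1 in that order, and controls lower in 736 and higher in 89. Without 1 library the ranges were 136 to 306 higher, 149 to 554 lower, 111 to 557 LLC rises, 42 to 199 LLC falls, 508 to 2739 dexamethasone rises, 260 to 564 falls, 20 to 194 raised and 13 to 41 lowered by both, 7 to 41 opposite, and controls lower in 4483 to 6017 and higher in 232 to 391.

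The sign changes were in differences that did not pass. Fbxo32 had −0.33 in TPM as deposited and ran from −0.13 to 0.36 without 1 library, with a negative sign without dexamethasone control 2 (−0.011), dexamethasone 4 (−0.0040), LLC control 1 (−0.099), LLC 1 (−0.10) or LLC 2. Trim63 ran from −0.34 to 0.11 (0.067 without LLC 3, 0.11 without dexamethasone 4), Socs3 from −0.041 (without LLC 2) to 0.79 and Myh4 from −0.34 to 0.031 (without dexamethasone 2). Mstn had −0.11 in TPM as deposited and Pdk4 −0.038 with array weights.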
